A study of Mus musculus with 30 samples.

Results

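B cell and lymphoid follicle genes were followed through 30 colon libraries as 8 genes chosen by name from the 46078 genes of the counts table: Cd79a, Cd79b, Ms4a1, Cd22, Cr2, Fcer2a, Cxcr5 and Cxcl13. All 8 were present in the table and all 8 passed the filter on low counts. The libraries were poly(A)-selected RNA-seq of the scraped epithelial layer of the colon, without tumours, from wild-type C57BL/6J mice, 1 library per mouse. There were 6 groups of 5 mice. Females and males given vehicle received saline (0.9% NaCl) and were killed at 9 weeks. Females and males given AOM/DSS received 1 injection of azoxymethane (AOM, a colon carcinogen, 10 mg/kg) and 3 cycles of dextran sodium sulfate (DSS, an irritant of the colon lining, 2.5% in the drinking water), and were killed at 9 or 15 weeks. Mice were 5 to 10 weeks old at the start. There was no vehicle group at 15 weeks, so treatment and time cannot be told apart in that comparison.

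The colon wall holds small lymphoid follicles, in which B cells gather around follicular dendritic cells and other stroma. The stroma secretes the chemokine Cxcl13, and B cells and follicular helper T cells enter along it by means of its receptor Cxcr5. The B cells recognise antigen through a surface immunoglobulin that signals through Cd79a and Cd79b. Ms4a1 encodes CD20, a surface protein of B cells, and Cd22 encodes an inhibitory co-receptor of the B cell receptor. Cr2 encodes the complement receptor of mature B cells and follicular dendritic cells, and Fcer2a encodes CD23, the low-affinity IgE receptor of resting follicular B cells. Scraping takes mostly epithelium, so follicle RNA enters a library only as far as follicles or free lymphocytes were scraped along. In bulk RNA, fewer cells of a type and less RNA per cell cannot be told apart.

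In the authors' annotation of GRCm38, Cd79a spans chr7:24897381-24902197 on the plus strand, Cd22 chr7:30865402-30880342 on the minus strand and Cd79b chr11:106311341-106314762 on the minus strand. Ms4a1 spans chr19:11249675-11266241, Cr2 chr1:195136811-195176716, Fcer2a chr8:3681737-3694174 and Cxcr5 chr9:44511788-44556391, all on the minus strand. Cxcl13 spans chr5:95956951-95961068 on the plus strand. Upstream sequence comes from the RefSeq promoter table of GRCm38.p6, in which 5 of the 8 genes were matched. It is shown for the 4 of these with a window that held bases outside the gene. Each line is the gene's own strand, read 5′ to 3′, and holds only bases outside the gene as the authors' annotation draws it. Capitals mark a match to one of the 4 motifs named after the lines.
Cd79a (chr7:24897247-24897380, plus strand): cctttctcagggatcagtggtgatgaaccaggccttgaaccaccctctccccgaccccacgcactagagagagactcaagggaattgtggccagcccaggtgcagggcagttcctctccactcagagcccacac
Cr2 (chr1:195176720-195176969, minus strand): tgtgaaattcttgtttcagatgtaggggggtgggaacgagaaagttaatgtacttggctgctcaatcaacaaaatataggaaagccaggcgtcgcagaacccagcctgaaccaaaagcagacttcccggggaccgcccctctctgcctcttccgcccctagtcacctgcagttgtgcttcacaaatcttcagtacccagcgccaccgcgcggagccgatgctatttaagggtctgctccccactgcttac
Fcer2a (chr8:3694175-3694424, minus strand): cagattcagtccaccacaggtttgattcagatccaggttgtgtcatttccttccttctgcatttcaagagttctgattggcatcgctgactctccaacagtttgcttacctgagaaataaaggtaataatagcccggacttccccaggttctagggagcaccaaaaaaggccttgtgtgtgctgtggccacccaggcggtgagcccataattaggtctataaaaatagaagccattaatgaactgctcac
Cxcl13 (chr5:95956689-95956938, plus strand): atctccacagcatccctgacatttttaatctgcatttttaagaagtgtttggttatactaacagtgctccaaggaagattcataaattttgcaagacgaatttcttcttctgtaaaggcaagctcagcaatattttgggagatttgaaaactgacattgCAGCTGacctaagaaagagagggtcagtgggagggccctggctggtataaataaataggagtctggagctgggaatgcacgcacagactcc
The motifs were the octamer ATTTGCAT, the early B cell factor motif TCCCNNGGG, the kappaB motif GGGANTTTC and the E-box CAGCTG, searched on both strands in windows from 250 bases before to 50 bases after a RefSeq start. The E-box reads the same on both strands. Of the 4 printed sequences, that of Cxcl13 holds the E-box, which begins 91 bases upstream of the RefSeq start, and the other 3 hold none of the 4 motifs. Over 22454 windows of genes in the table, 16.0% held the E-box, 7.31% the early B cell factor motif, 1.63% the octamer and 1.11% the kappaB motif. Among the 7 windows of member genes, 2 held the E-box, in Cxcl13 and in a second Fcer2a window. The early B cell factor motif was found in 1, that of Cd22, which lies inside Cd22 as the authors' annotation draws it. A match is a run of letters and not evidence of binding.

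The library totals ran from 9265804 to 30806392 counts, with a median of 24697064, so that 1 count was worth 0.0325 to 0.108 CPM (counts scaled to a common library total). The lowest total was that of vehicle-treated female replicate 5. Vehicle-treated male replicate 1 stood apart by a summed level of 8 smooth muscle genes of 6537 CPM, while the other 9 vehicle libraries held at most 146.5 CPM. The results of the 8 genes against vehicle are therefore given below without that library as well, and for the marker lists the counts that changed without it. The labelled tissue was checked against 12 epithelial marker genes, which summed to 15760 to 41180 CPM in every library.

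The 8 genes were low in this tissue and differed widely between mice of the same group. Per length, as deposited TPM (reads scaled by transcript length, then to a common total), the median over 30 libraries was 2.85 for Cd79a, 2.41 for Cd79b, 1.76 for Cxcl13, 0.773 for Ms4a1, 0.661 for Cd22, 0.489 for Fcer2a, 0.424 for Cr2 and 0.331 for Cxcr5. The ranges of all neighbours in that order overlapped. In CPM, the highest library exceeded the lowest 38.5-fold for Cd79a, 29.2-fold for Cxcl13 and 400.5-fold for Cr2. No library was at 0 counts for any of the 8 genes. Deposited TPM and FPKM were nevertheless 0 in at least 1 library for Cd79b, Ms4a1, Cr2, Cxcr5 and Fcer2a. For Cxcr5 this included female replicate 1 at 15 weeks, which held 20 counts. Cr2 was at 3 counts or fewer in 2 libraries and Fcer2a in 2 libraries, and values there are precise only to counting error. The SD of log2 CPM (TMM-scaled, with a prior count of 2) among mice of 1 group was 0.998 for Cxcr5 to 1.85 for Cr2, while the median tested gene had 0.328. These SDs lay at the 91.8 to 99.6 percentile of the 16261 tested genes.

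**Figure D1:**
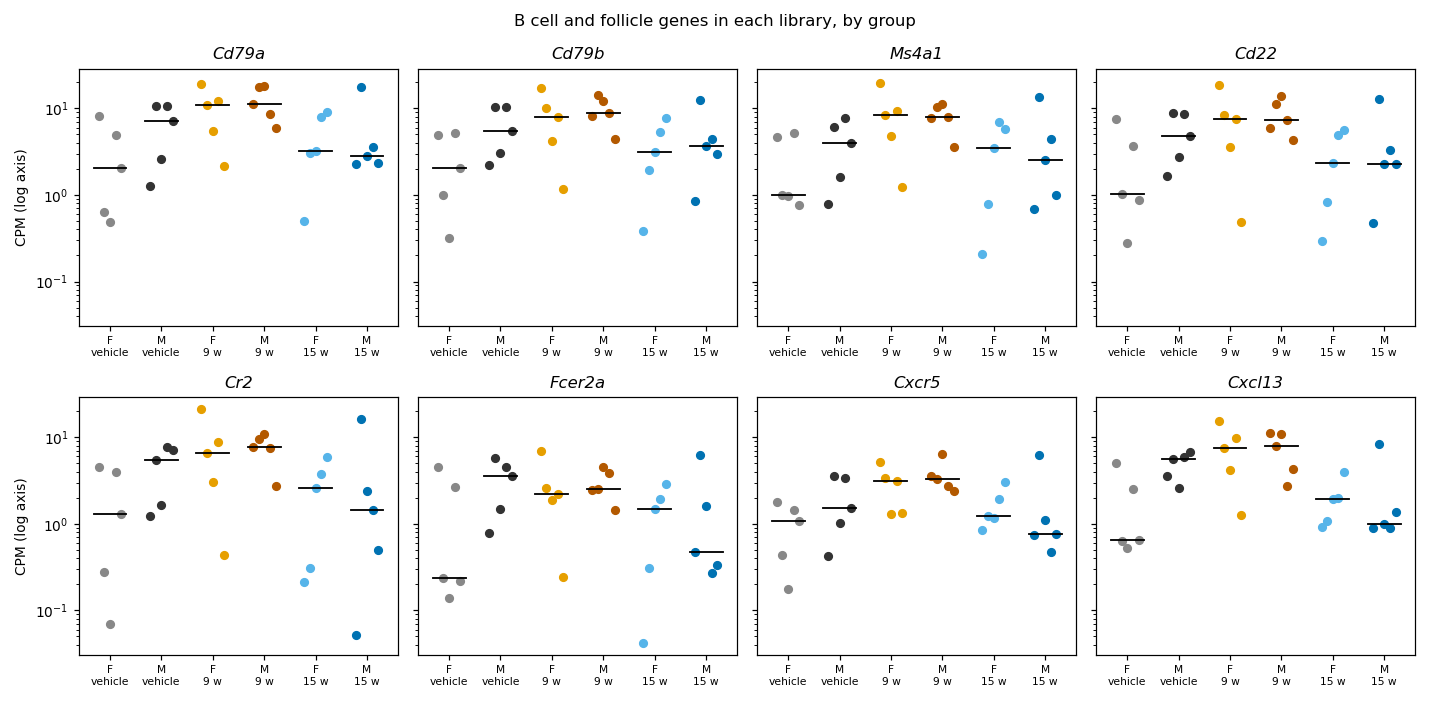
CPM (log axis) of each of the 8 genes in each library, by group (F, females; M, males; w, weeks of AOM/DSS). Each point is 1 mouse, points are ordered by replicate number within a group, and bars are group medians. The spread within a group was uneven. The highest over the lowest mouse was 2.67 (Cxcr5) to 4.06 (Cxcl13) in males at 9 weeks, and reached 306.7 for Cr2 in males at 15 weeks. The 3 conditions overlapped in all 8 panels.

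Cd79a, the signalling chain of the B cell receptor with the highest TPM of the set, shows the pattern. In vehicle-treated females, replicates 1 to 5 gave 8.14, 0.633, 0.491, 4.94 and 2.05 CPM, and in vehicle-treated males 1.28, 10.7, 2.58, 10.6 and 7.22 CPM. At 9 weeks of AOM/DSS, females gave 18.9, 10.8, 5.51, 12.3 and 2.16 CPM, and males 11.1, 17.7, 18.3, 8.70 and 6.00 CPM. At 15 weeks, females gave 0.505, 3.06, 3.19, 7.89 and 9.14 CPM, and males 2.27, 17.7, 2.85, 3.56 and 2.35 CPM. The median was highest at 9 weeks, but the 9-week libraries overlapped both other conditions, and male replicate 2 at 15 weeks reached the level of the highest males at 9 weeks. Cd79b, its partner chain, ran from 0.316 to 10.3 CPM with vehicle, 1.18 to 17.0 CPM at 9 weeks and 0.379 to 12.4 CPM at 15 weeks.

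The surface proteins of B cells followed the same libraries. Ms4a1 had a median of 2.80 CPM with vehicle (range 0.756 to 7.77), 8.18 CPM at 9 weeks (1.23 to 19.6) and 3.02 CPM at 15 weeks (0.210 to 13.6), n = 10 libraries each. Cd22 had medians of 3.22, 7.42 and 2.31 CPM in the same order. Cr2 had medians of 2.77, 7.61 and 1.92 CPM, and Cxcr5 of 1.26, 3.20 and 1.14 CPM. For each of these 4 genes the 3 conditions overlapped.

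Fcer2a stood at a median of 2.08 CPM with vehicle, 2.51 CPM at 9 weeks and 0.982 CPM at 15 weeks. By replicate, it was at 4.52, 0.237, 0.140, 2.68 and 0.216 CPM in vehicle-treated females and at 0.784, 5.76, 1.48, 4.52 and 3.61 CPM in vehicle-treated males. At 9 weeks, females were at 7.01, 2.61, 1.89, 2.21 and 0.245 CPM and males at 2.47, 2.55, 4.496, 3.90 and 1.46 CPM. At 15 weeks, females were at 0.0421, 0.306, 1.49, 1.91 and 2.90 CPM and males at 0.474, 6.19, 1.59, 0.274 and 0.336 CPM. The 9-week libraries of this gene lay within the vehicle range apart from female replicate 1.

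Cxcl13, the chemokine of the follicle stroma, was at 4.98, 0.633, 0.526, 2.51 and 0.648 CPM in vehicle-treated females and at 3.56, 5.59, 2.62, 5.87 and 6.81 CPM in vehicle-treated males. At 9 weeks it was at 15.3, 7.43, 4.17, 9.87 and 1.28 CPM in females and at 11.1, 7.96, 10.99, 2.73 and 4.24 CPM in males. At 15 weeks it was at 0.925, 1.09, 1.95, 2.01 and 3.99 CPM in females and at 0.896, 8.27, 0.999, 0.889 and 1.38 CPM in males. Without male replicate 2, no 15-week library reached the 9-week median of 7.69 CPM, and that male was the highest 15-week library for all 8 genes. In order of group medians Cxcl13 was highest in males and females at 9 weeks, then in vehicle-treated males, females at 15 weeks, males at 15 weeks and vehicle-treated females, and neighbours in that order overlapped.

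Vehicle-treated mice were first compared with AOM/DSS-treated mice at 9 weeks, soon after the last DSS cycle, averaging the sexes. None of the 8 genes passed the test, with estimates above 0 for all 8. A gene passed when the Benjamini-Hochberg adjusted p over all tested genes was below 0.05 in edgeR's quasi-likelihood test, the log2 fold change was beyond 0.4 and the mean FPKM was at least 1 in a compared group. Cxcr5 and Fcer2a did not reach that FPKM. Of all 16261 genes, 8.29% passed, 5.51% as higher and 2.78% as lower. At an unadjusted p under 0.05, 5 of the 8 were higher (Cd79a, Cd79b, Ms4a1, Cxcr5 and Cxcl13), while 29.0% of all genes met that limit in either direction. The median log2 fold change of the 8 was 1.22, and that of all genes was -0.02.

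Cxcl13 came nearest to the threshold, with a log2 fold change of 1.28 (SE 0.46, adjusted p = 0.0573, 2.42-fold). Ms4a1 had the highest estimate, 1.35 (SE 0.56, adjusted p = 0.103, 2.54-fold), followed by Cr2 with 1.31 (SE 0.70, adjusted p = 0.22) and Cd79a with 1.24 (SE 0.52, adjusted p = 0.107). Cxcr5 had 1.19 (SE 0.45, adjusted p = 0.0702), Cd79b 1.05 (SE 0.49, adjusted p = 0.155) and Cd22 1.05 (SE 0.57, adjusted p = 0.2285). Without vehicle-treated male replicate 2, Cxcr5 had an adjusted p of 0.047 in edgeR and was not called because of the FPKM minimum. Fcer2a had the lowest, 0.31 (SE 0.63, adjusted p = 0.793). DESeq2 called 1 member, Cxcl13 (adjusted p = 0.025), and edgeR on the 20 compared libraries alone also called Cxcl13 (adjusted p = 0.045). Leaving out vehicle-treated female replicate 1 gave 2 calls, Cxcl13 (1.65) and Cd79a (1.58), and leaving out female replicate 5 or male replicate 4 at 9 weeks gave 1 call, Cxcl13 (1.39 and 1.38). Over all genes, the fits that left out 1 of these libraries called 1396, 1684 and 1285 in that order, where the fit with all libraries called 1348. The counts over all genes of the 20-library fit, and of DESeq2 in any comparison, are not reported here. Without vehicle-treated male replicate 1, none passed, and Cxcl13 had 1.22 (adjusted p = 0.0851).

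At 15 weeks against vehicle, again with the sexes averaged, none of the 8 genes passed in edgeR, none passed in DESeq2, and none had an unadjusted p under 0.05. Of all genes, 7.35% passed, 3.46% as higher and 3.89% as lower, and 34.2% met the unadjusted limit. Only Cd79a, Cd79b and Cxcl13 reached the FPKM needed to be called. The estimates were small beside their errors, from -0.50 (SE 0.64) for Fcer2a and -0.38 (SE 0.46) for Cxcl13 to 0.40 (SE 0.45) for Cxcr5. Cd22 had -0.09 (SE 0.57), Cd79b 0.09 (SE 0.49), Cr2 0.11 (SE 0.70), Cd79a 0.25 (SE 0.52) and Ms4a1 0.33 (SE 0.56). Without vehicle-treated male replicate 1, none passed, and Cxcl13 had -0.43. Without male replicate 2 at 15 weeks, all 8 estimates were below 0, down to -1.16 for Fcer2a, and none passed.

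The comparison of 15 with 9 weeks of AOM/DSS asks how these genes differed between the acute stage of the colitis and the later, more chronic stage. Cxcl13 was lower at 15 weeks, by 1.66 on the log2 scale (SE 0.47, adjusted p = 0.0412), or 3.16-fold. It was the 1 member of 8 that passed, where 2.32% of all genes passed and 1.91% as lower. With 1 library left out, that background of 378 genes ran from 95 genes (without female replicate 4 at 9 weeks) to 1185 (without female replicate 5 at 9 weeks), and 11 of the 20 such fits moved it over 1.5-fold. Cxcl13 was also the 1 member with an unadjusted p under 0.05, a limit that 23.7% of all genes met. Cxcr5 and Fcer2a did not reach the FPKM needed to be called. All 8 estimates were below 0, with a median of -1.003 against -0.02 for all genes. The other 7 ran from -1.20 (SE 0.70) for Cr2 and -1.14 (SE 0.57) for Cd22, over -1.01 (SE 0.55) for Ms4a1, -0.99 (SE 0.52) for Cd79a and -0.96 (SE 0.49) for Cd79b, to -0.82 (SE 0.64) for Fcer2a and -0.79 (SE 0.44) for Cxcr5. This comparison and that of 9 weeks with vehicle share the 9-week libraries.

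The Cxcl13 call was near its threshold. It was kept by DESeq2 but was lost in the edgeR fit with no low-count filter (adjusted p = 0.0545) and in 14 of the 20 fits that left out 1 library, with log2 fold changes of -1.67 to -1.45 and adjusted p of 0.0545 to 0.0909. Those 14 left out females at 9 weeks 1, 2 or 4, males at 9 weeks 1, 2 or 3, females at 15 weeks 1, 2, 3 or 4, or males at 15 weeks 1, 3, 4 or 5. It was kept in the other 6, most clearly without male replicate 2 at 15 weeks (log2 fold change -2.26, adjusted p = 0.00969).

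**Figure D2:**
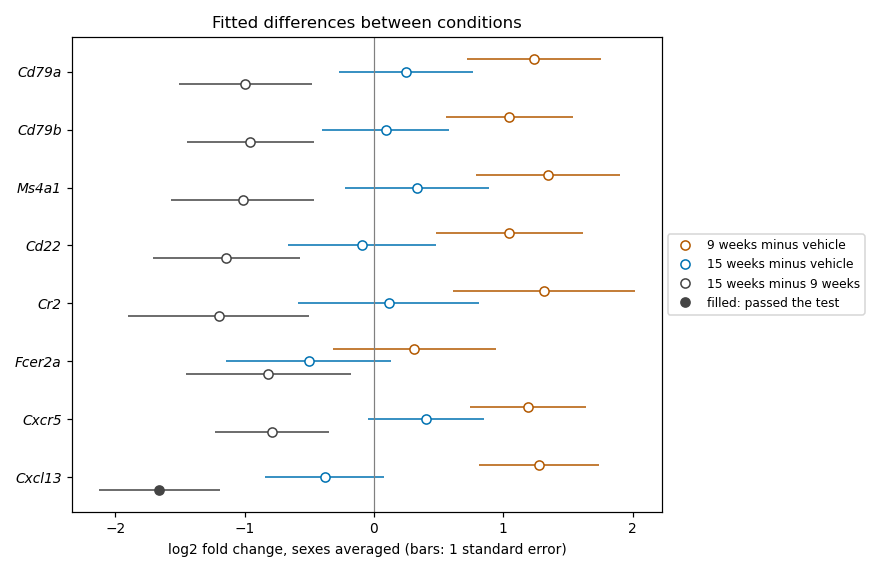
Log2 fold changes of the 8 genes in the edgeR fit, sexes averaged, for 3 comparisons, with bars of 1 standard error. The 9-week estimates lie to the right of 0 and the 15-against-9-week estimates to the left, and only the latter value of Cxcl13 is filled as having passed the test.

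Within each sex, none of the 8 genes passed at 9 weeks against vehicle, where Cxcr5 and Fcer2a did not reach the FPKM needed to be called. In females the median log2 fold change was 1.51, with Cxcl13 at 1.93 (SE 0.67, adjusted p = 0.103), Cr2 at 1.89 (SE 1.02) and Fcer2a at 0.74 (SE 0.90). There 5 of 8 had an unadjusted p under 0.05, while 2.90% of all genes passed and 17.2% met the unadjusted limit. Those 471 genes became 232 without female replicate 4 and 1030 without female replicate 5 at 9 weeks, and 6 of the 10 fits that left out 1 library moved the count over 1.5-fold. DESeq2 called 1 member in females, Cxcl13 (adjusted p = 0.0357), as did edgeR without vehicle-treated female replicate 1 (log2 fold change 2.69) or without female replicate 5 at 9 weeks (2.17). The former edgeR fit called 657 genes of all. In males the median was 0.71, from -0.11 (SE 0.89) for Fcer2a to 1.02 (SE 0.78) for Ms4a1, with Cxcl13 at 0.62 (SE 0.64). There 0 of 8 had an unadjusted p under 0.05 and DESeq2 called 0, while 7.31% of all genes passed and 25.4% met the unadjusted limit. Those 1188 genes became 769 without male replicate 2 at 9 weeks. Without vehicle-treated male replicate 1, Cxcl13 in males had 0.52 and none passed.

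At 15 weeks within each sex, none of the 8 passed in edgeR or DESeq2 and 0 of 8 had an unadjusted p under 0.05. Only Cd79a, Cd79b and Cxcl13, and in males also Ms4a1, reached the FPKM needed to be called. In females 0.0984% of all genes passed and 10.9% met the unadjusted limit, and in males 8.92% passed and 31.4% met it. The 16 genes of females ran from 2 (without vehicle-treated replicate 3) to 32 (without replicate 1 at 15 weeks), with 6 of 10 such fits moved over 1.5-fold. The 1451 of males fell to 615 without vehicle-treated male replicate 1, and to 902 and 891 without male replicates 1 and 5 at 15 weeks. Cxcl13 in males had -0.85 (SE 0.65, adjusted p = 0.387), and of the 10 fits that left out 1 library it passed in 1, without male replicate 2 at 15 weeks (-2.06, adjusted p = 0.033). That fit called 1444 genes of all. Without vehicle-treated male replicate 1, Cxcl13 in males had -0.95 (adjusted p = 0.422).

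Sexes were also compared directly. With vehicle, all 8 estimates were higher in males, with a median of 0.94, but none passed in edgeR or DESeq2 and 0 of 8 had an unadjusted p under 0.05. Only Cd79a, Cd79b and Cxcl13 reached the FPKM needed to be called. Of all genes, 0.178% passed this comparison and 18.7% met the unadjusted limit. Those 29 genes became 1047 without vehicle-treated female replicate 1, and 8 without any 1 of the other 4 vehicle-treated females, and 9 of 10 such fits moved the count over 1.5-fold. The highest estimate was that of Cxcl13, 1.27 (SE 0.66, adjusted p = 0.301), and the lowest that of Ms4a1, 0.56 (SE 0.79). Without vehicle-treated male replicate 1, Cxcl13 had 1.37 and none passed. At 9 weeks, 0.0492% of all genes passed and 3.87% met the unadjusted limit, and at 15 weeks 0.184% and 12.4%, with 0 of 8 members by either measure and 0 by DESeq2. Cxcr5 and Fcer2a missed the FPKM needed to be called at both times, and Cd22 and Cr2 at 15 weeks. The 30 genes at 15 weeks ran from 12 to 83 with 1 library left out (without female replicates 1 and 5), and 6 of 10 such fits moved over 1.5-fold. For the difference of the treatment response between the sexes (the interaction), 0 members and 0 genes of all (0% passed) were called by edgeR at 9 weeks and at 15 weeks. At an unadjusted p under 0.05 there were 0 of 8 at both times, with 7.41% of all genes at 9 weeks and 7.66% at 15 weeks. The 9-week interaction was below 0 for all 8, from -1.31 (SE 0.91) for Cxcl13 to -0.59 (SE 0.89) for Cxcr5, so the larger female medians were not shown to differ from those of males.

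Across libraries the 8 genes moved together. Pairwise Pearson correlations of log2 CPM over the 30 libraries ran from 0.782 to 0.971 (median 0.88) over 28 pairs, and after subtracting group means from 0.73 to 0.964 (median 0.879). The points share their library, so RNA input and the tissue scraped are common to both values. The summed level of the 8 genes differed 19.8-fold among vehicle libraries (2.98 to 58.96 CPM), 14.7-fold at 9 weeks (8.34 to 122.6 CPM) and 27.4-fold at 15 weeks (3.41 to 93.4 CPM). The same libraries held the extremes: female replicate 1 was the highest 9-week library for 7 of 8 genes, female replicate 5 the lowest for 7, male replicate 2 the highest 15-week library for 8, and vehicle-treated female replicate 3 the lowest vehicle library for 7. The sum exceeded the vehicle median of 23.2 CPM in 9 of 10 libraries at 9 weeks and in 3 of 10 at 15 weeks.

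**Figure D3:**
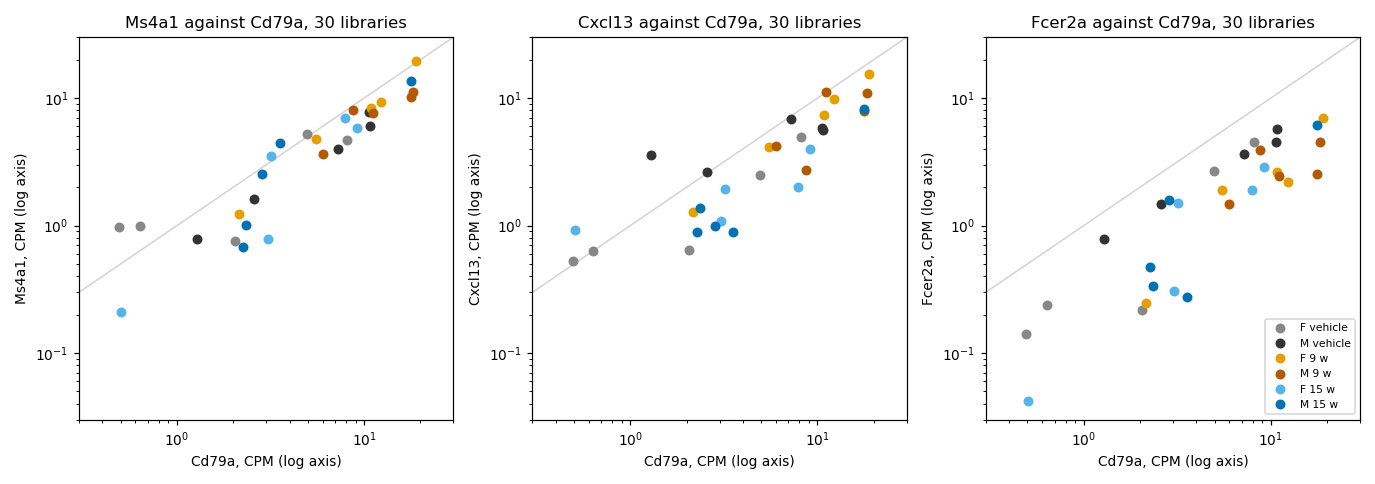
CPM of Ms4a1, Cxcl13 and Fcer2a (vertical, log axes) against CPM of Cd79a (horizontal, log axis) in the 30 libraries, coloured by group, with a grey line where both are equal. Most libraries low in Cd79a were low in the other 3 genes, with the Cxcl13 of vehicle-treated male replicate 1 (3.56 CPM at 1.28 CPM of Cd79a) as an exception.

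The 10 genes most like the mean of the 8, among all other tested genes, included Cd37, Ighd, H2-Ob, Blk, Bank1, Siglecg, Pax5, H2-Eb2 and H2-DMb2. Their Pearson correlation with the mean z-scored level of the 8 was 0.977 for Cd37, a tetraspanin of leukocytes, and 0.964 for Ighd, the heavy chain of IgD, down to 0.943 for H2-DMb2, over 30 libraries. Spearman values of the 10 were 0.946 to 0.986, and Pearson values after subtracting group means were 0.922 to 0.97. Pax5, by which B cells are defined, was thus among the genes nearest to the 8.

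Levels relative to Cd79a, which set aside how much B cell RNA a library held as far as Cd79a measures it, were read as count ratios within a library. These ratios are a description with no test. The count ratio of Fcer2a to Cd79a had a median of 0.518 with vehicle (0.105 to 0.611), 0.243 at 9 weeks (0.114 to 0.448) and 0.226 at 15 weeks (0.0769 to 0.558). It was above 0.4 in 7 of 10 vehicle libraries, in 1 of 10 at 9 weeks and in 2 of 10 at 15 weeks. The 5 vehicle-treated males were at 0.611, 0.536, 0.574, 0.426 and 0.5, and the 5 males at 9 weeks at 0.222, 0.144, 0.245, 0.448 and 0.244, with 1 male of the latter inside the range of the former. Vehicle-treated females were less even, at 0.555, 0.375, 0.286, 0.543 and 0.105, and 3 of them rest on 6, 4 and 2 counts of Fcer2a. Female replicate 5 at 9 weeks rests on 5 counts. At 15 weeks, female replicates 1 and 2 rest on 1 and 7 counts, and male replicates 1, 4 and 5 on 9, 4 and 10. Their ratios were 0.0833, 0.1, 0.209, 0.0769 and 0.143 in that order, so the 15-week median leans on few counts. With vehicle, at 9 weeks and at 15 weeks, the ratio of Ms4a1 to Cd79a had medians of 0.622, 0.724 and 0.702. That of Cxcl13 had 0.778, 0.697 and 0.416. Lower medians than with vehicle were also seen for Cd79b (0.986, 0.75 and 0.8), Cd22 (0.816, 0.682 and 0.675) and Cr2 (0.632, 0.596 and 0.444). Cxcr5 had 0.33, 0.31 and 0.34. A lower ratio to Cd79a was thus not particular to Fcer2a.

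An edgeR fit chosen after these ratios were seen added the mean log2 CPM of Cd79a and Cd79b as a covariate. In it Fcer2a was lower at 9 weeks than with vehicle by 0.92 on the log2 scale (SE 0.32, adjusted p = 0.0638), which did not pass, and at 15 weeks by 0.72 (adjusted p = 0.0908). Ighd, the heavy chain of the IgD of naive B cells, had -0.63 at 9 weeks (SE 0.20, adjusted p = 0.0465), while Pax5, a transcription factor of B cells, had -0.47 (adjusted p = 0.314). In the same fit Cxcl13 at 15 against 9 weeks had -0.88 (adjusted p = 0.204). None of the members outside the covariate passed in any of the 3 comparisons. The share of all genes that passed in this fit is not reported here. The ratio and the covariate both use Cd79a itself, whose error is shared by the values set against it. Cd79a and Cd79b correlated with the other members at 0.825 to 0.971, so the covariate also takes up condition differences that they share. The fit was chosen from ratios of the same libraries, so its p-values are no independent test of them.

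**Figure D4:**
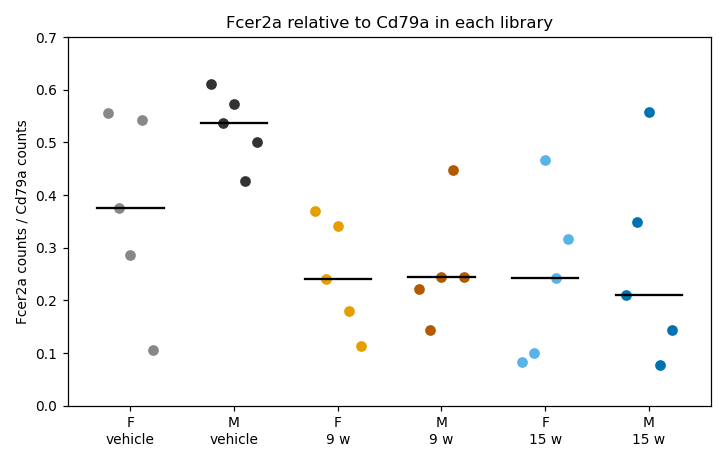
Counts of Fcer2a divided by counts of Cd79a in each library, by group, with a linear axis from 0 and bars at group medians. Vehicle-treated males lie between 0.426 and 0.611, above 4 of the 5 males at 9 weeks.

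Other B cell genes were read from a list of B cell receptor and identity genes. Of 29 tested, 8 rose at 9 weeks against vehicle and 0 fell, with a median log2 fold change of 1.16, where 5.51% of all genes rose and 2.78% fell. Without vehicle-treated male replicate 1, 8 of 29 rose as well. The largest were Ciita, the activator of MHC class II genes (3.30, SE 0.44, adjusted p = 5.6e-06), Fcgr2b, an inhibitory Fc receptor (1.96, SE 0.44), and Pou2af1, a B cell transcriptional co-activator (1.45, SE 0.44). Ciita, Fcgr2b, Lyn and Syk are also expressed by myeloid cells. The B cell markers Pax5 (1.001, SE 0.58, adjusted p = 0.259) and Ighd (0.67, SE 0.58, adjusted p = 0.49) did not pass. At 15 weeks 2 of 29 rose, Ciita (2.02) and Syk (0.51), and 0 fell, where 3.46% of all genes rose. Without vehicle-treated male replicate 1, 3 of 29 rose at 15 weeks, where 2.67% of all genes rose. At 15 against 9 weeks 0 rose and 2 fell, where 1.91% of all genes fell, Fcgr2b and Lyn (-0.54, SE 0.11), the former in 13 of the 20 fits that left out 1 library and the latter in all 20.

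Genes of the germinal centre and of follicular helper T cells gave 1 of 12 higher at 9 weeks, Il21r, the receptor of interleukin 21 (1.18, SE 0.35, adjusted p = 0.0196), where 5.51% of all genes rose. Without vehicle-treated male replicate 1, 1 of 12 was higher and 1 lower, where 5.45% of all genes rose and 2.58% fell. The lower gene was Rgs13 (-0.65, adjusted p = 0.0438), while the median log2 fold change of the 12 was 0.746. Which cells the Rgs13 RNA came from was not tested. None of the 12 passed at 15 weeks, and 1 was lower at 15 against 9 weeks, also Il21r (-1.20, in 7 of 20 fits that left out 1 library). The lymphotoxin axis and follicle stroma gave 6 higher and 1 lower of 24 at 9 weeks, and 5 and 1 of 25 without vehicle-treated male replicate 1. The highest were Tnf (3.16, SE 0.36), the adhesion molecule Icam1 (2.004, SE 0.30) and Vcam1, an adhesion molecule of stroma and endothelium (1.70, SE 0.38). Ltb, which encodes lymphotoxin beta and was named after its value was seen, rose by 1.35 (SE 0.35, adjusted p = 0.00764). At 15 weeks 3 of these 24 were higher, among them Tnf (1.67), and 3 lower, among them Enpp2 (-2.16) and Cxcl12 (-1.35), where 3.46% of all genes rose and 3.89% fell. Neither Enpp2 nor Cxcl12 passed without vehicle-treated female replicate 1 or male replicate 1. Without that male, 3 of 25 were higher and 1 lower at 15 weeks, where 2.67% of all genes rose and 2.55% fell. At 15 against 9 weeks 4 of 24 were lower, where 1.91% of all genes fell, among them Tnf (-1.49, SE 0.34), Vcam1 (-1.43) and Icam1 (-1.04). Of the 20 fits that left out 1 library, Tnf passed in 19, Vcam1 in 12 and Icam1 in 6.

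Of 10 genes listed for follicle-associated epithelium, the layer with M cells that covers a follicle, 4 were higher at 9 weeks, 0 were lower and 6 did not pass. Among all genes 5.51% rose. The largest were Tnfaip2 (2.27, SE 0.39), Marcksl1 (1.28, SE 0.29) and Ccl9 (0.89, SE 0.21). Whether these values came from M cells or from other cells was not tested. At 15 weeks 1 of 10 was higher, where 3.46% of all genes rose. At 15 against 9 weeks 2 of 10 were lower, where 1.91% of all genes fell, Tnfaip2 (-1.91, SE 0.38) and Anxa5 (-0.41). Anxa5 was at the fold threshold, not past it in DESeq2 and called in 10 of the 20 fits that left out 1 library. Plasma cells, the antibody-secreting descendants of B cells, gave 6 of 11 higher at 9 weeks, led by Igha (2.36, SE 0.49, adjusted p = 0.00133), Igkc (2.24, SE 0.47) and Jchain (2.15, SE 0.47). Their summed level was 570 to 2181 CPM with vehicle, 1115 to 7104 CPM at 9 weeks and 695 to 2931 CPM at 15 weeks. At 15 weeks 1 of 11 was higher and at 15 against 9 weeks 1 was lower. The plasma cell list shares Pou2af1 with the B cell list, and immunoglobulin genes of one family can share reads.

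Lists of other cells were read against the same shares of all genes, 5.51% higher and 2.78% lower at 9 weeks and 3.46% higher and 3.89% lower at 15 weeks. T cell genes gave 3 of 15 higher at 9 weeks, led by Trac (1.57, SE 0.21) and Trbc2 (1.45, SE 0.29). Macrophage and dendritic cell genes gave 5 of 12, led by Itgax (1.63, SE 0.33) and Cd14 (1.41, SE 0.22), and neutrophil genes 4 of 6. Mesenchyme gave 0 of 14 and smooth muscle 0 of 8 at 9 weeks, and 5 and 7 lower at 15 weeks. Both 15-week counts rest on vehicle-treated male replicate 1: without it, a setting chosen after seeing the data, 1 of 14 and 0 of 8 were lower. Of all genes, 2.67% were then higher and 2.55% lower at 15 weeks. Without that library, macrophages and dendritic cells gave 8 of 12 higher at 9 weeks and 0 at 15 weeks, and T cells 4 of 15 at both times. Mesenchyme then gave 1 of 14 higher at 9 weeks, where 5.45% of all genes rose. Epithelial markers gave 1 higher and 1 lower of 12 at 9 weeks, and 2 higher and 1 lower at 15 weeks. At 15 weeks T cells gave 3 higher, macrophages and dendritic cells 1 and neutrophils 2. At 15 against 9 weeks, where 1.91% of all genes fell, T cells gave 1 lower, macrophages and dendritic cells 3, neutrophils 4, mesenchyme 3, and smooth muscle and epithelium 0. The mesenchyme summed to 40.3 to 692.4 CPM in 9 vehicle libraries and 1955 CPM in vehicle-treated male replicate 1, 65.8 to 546.2 CPM at 9 weeks and 31.6 to 303.4 CPM at 15 weeks, where Cxcl13 was lower. Its part in the Cxcl13 result was not tested.

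**Figure D5:**
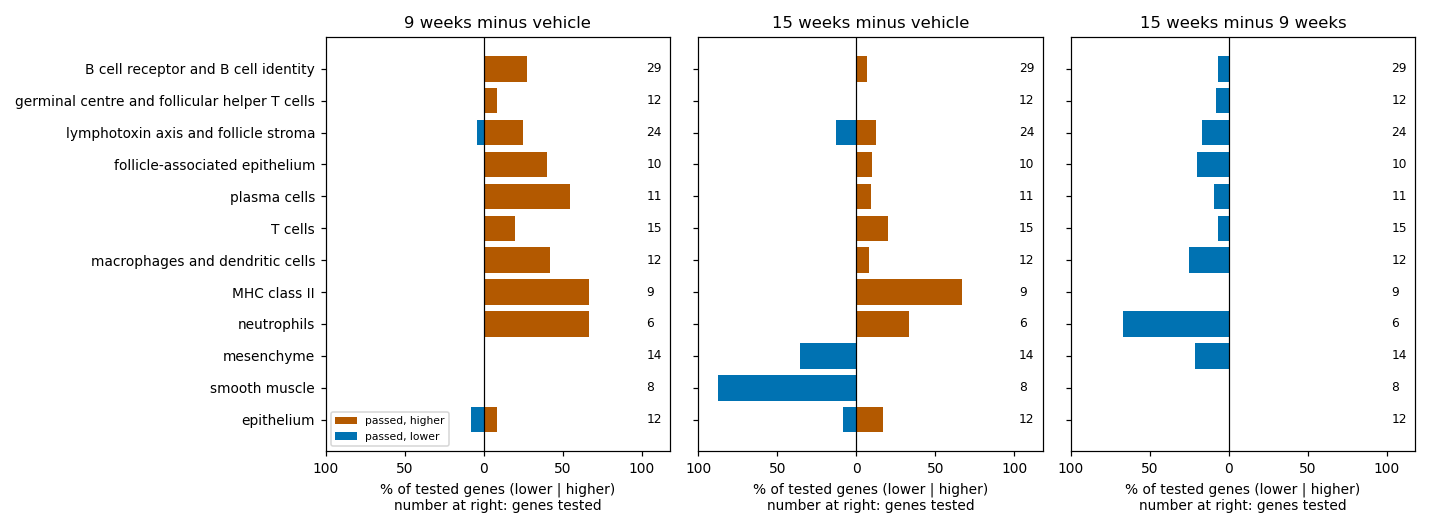
Percent of the tested genes of each list that passed as higher (orange, to the right) or lower (blue, to the left) in 3 comparisons, with the number tested at the right edge. Plasma cell, MHC class II and neutrophil genes had the highest shares at 9 weeks, 8 of 29 B cell genes passed, and the 7 lower smooth muscle genes at 15 weeks became 0 without vehicle-treated male replicate 1.

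With the mean of the 8 genes over 30 libraries, the mean level of the B cell list correlated at 0.982, the germinal centre list at 0.942, the lymphotoxin and stroma list at 0.84, follicle-associated epithelium at 0.808, MHC class II at 0.739, plasma cells at 0.729, macrophages and dendritic cells at 0.664, neutrophils at 0.609, mesenchyme at 0.511 and T cells at 0.497. Smooth muscle stood at 0.327 and epithelium at -0.366. After subtracting group means, the values were 0.987 for the B cell list, 0.954 for the germinal centre list, 0.783 for MHC class II, 0.775 for follicle-associated epithelium, 0.773 for lymphotoxin and stroma, and 0.643 for plasma cells. They were 0.49 for T cells, 0.465 for macrophages and dendritic cells, 0.421 for neutrophils, 0.281 for mesenchyme, 0.116 for smooth muscle and -0.241 for epithelium. All lists share the libraries of the 8 genes.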

How the data were processed

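RNA of 30 colon scrapes was sequenced as stranded poly(A) libraries. Per the labels and the study's methods, the authors used bcl2fastq 2.20.0.422, Trim Galore, STAR (GRCm38), featureCounts and StringTie. The authors deposited 1 table of raw counts per gene and, per library, FPKM and TPM per gene. FPKM was used here for the expression minimum and TPM for levels per length.

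Counts were tested with edgeR 4.0.16 (R 4.3.3), with TMM scaling, filterByExpr, 1 coefficient per group and the quasi-likelihood test, in 12 comparisons over 30 libraries. CPM in the text used library totals, and log2 CPM used TMM-scaled totals with a prior count of 2. Called genes had a Benjamini-Hochberg adjusted p below 0.05, a log2 fold change beyond 0.4 and a mean FPKM of at least 1. The test script was checked on simulated data. Alternatives were DESeq2 1.42.0, its size factors, no count filter, the compared libraries only, robust dispersions, no fold or FPKM threshold, replicate number as a block, and leaving out each library.

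The members and lists were chosen with earlier results of these data known. Named from each list were up to 3 called genes per direction by fold change, with defining markers, and the 10 genes best correlated with the members. Some genes that this rule names are not reported here. No libraries looked like copies: over 60 within-group pairs Spearman correlations were 0.941 to 0.994. Sequences came from RefSeq.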

Additional observations from a re-analysis of the deposited data

Results flagged for a closer look

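Of 48 gene and group combinations of 5 mice, 3 held a library whose gap to the nearest other mouse exceeded Dixon's 95% critical value of 0.71 of the group's range. Chance flags about 1 in 20 groups. Male replicate 2 at 15 weeks was flagged for Cd79a, at a log2 CPM of 4.16 where the group median was 1.67, and for Cxcl13, at 3.06 where the median was 0.22. It was the highest 15-week library for all 8 genes. Male replicate 5 at 9 weeks was flagged for Cr2, at a log2 CPM of 1.41 where the median was 2.90.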

How the results depend on the processing

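At 9 weeks against vehicle, 1 member passed in DESeq2 and 1 with the compared libraries only, and 0 to 2 when 1 library was left out. In females 1 passed in DESeq2 and 0 to 1 with 1 library left out, and in males at 15 weeks 0 to 1. At 15 against 9 weeks, 0 passed with no low-count filter, 0 with the Cd79a and Cd79b covariate (chosen after seeing the data), and 0 to 1 with 1 library left out.

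With the covariate, log2 fold changes changed sign at 9 weeks for Cr2 (-0.36), Cd22 (-0.35), Fcer2a (-0.92), Ighd (-0.63) and Pax5 (-0.47), at 15 weeks for Cr2 (-0.43) and Ms4a1 (-0.10), and at 15 against 9 weeks for Fcer2a (0.20) and Ighd (0.013). The cause was not tested. With 1 library left out, sign changed at 15 weeks for Cr2 (-0.81 to 0.39), Cd79b (-0.25 to 0.30), Ms4a1 (-0.18 to 0.57), Cd79a (-0.27 to 0.58), Cd22 (-0.59 to 0.33) and Cxcr5 (-0.20 to 0.58), and at 9 weeks for Fcer2a (-0.023 to 0.75, in males -0.37 to 0.23).

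Replicate numbers did not pair the libraries: deviations of same-numbered libraries correlated at a median of -0.0262 (-0.581 to 0.467, 75 pairs), and 4 of 30 libraries correlated best with their own number. With the replicate block, 0 members passed at 15 against 9 weeks, Cd22 at 15 weeks had 0.035, and calls over all genes went from 378 to 268 at 15 against 9 weeks. Depth limits Cr2 and Fcer2a most, with as few as 1 count in a library.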

Other observations

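Genes of MHC class II, the antigen-presenting molecules of B cells and other cells, split into a part that rose and a part that did not pass. Of 9 tested, 6 rose at 9 weeks and 6 at 15 weeks, also without vehicle-treated male replicate 1, where 5.51% and 3.46% of all genes rose. At 9 weeks H2-DMb1 rose by 4.01 on the log2 scale (SE 0.42), Cd74, the invariant chain, by 3.87 (SE 0.48) and H2-Aa by 3.48 (SE 0.50), and at 15 weeks H2-DMb1 rose by 3.07 and Cd74 by 3.08. The 3 that passed at neither time were H2-Ob (1.19 at 9 weeks), H2-Oa (1.09) and H2-DMb2 (1.06). H2-Ob and H2-DMb2 are among the 10 genes most like the 8 B cell and follicle genes across libraries. The summed level of the list was 32.9 to 308.1 CPM with vehicle, 217.6 to 3611 CPM at 9 weeks and 152.8 to 1797 CPM at 15 weeks.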
